A study of Mus musculus with 4 samples.

Results

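A set of 9 genes of interferon response and nucleic acid sensing was looked up by name in the deposited RefSeq table: Ifitm1, Ifitm2, Ifitm3, Ifih1, Ddx58, Mavs, Irf3, Tlr3 and Adar. Rows were found for 8 of these 9, among 19797 gene symbols in all, and Ifih1 is not analysed here. The samples were whole-transcriptome RNA-seq libraries of MC1-ZE7, a mouse embryonic stem (ES) cell line of the strain MC1 (129S6/SvEvTac), grown without feeder cells in serum and LIF. The line carries Emerald, a green fluorescent protein, as a reporter of Zscan4, a gene cluster active at the 2-cell stage and, at any time, in a minority of ES cells. Cells were sorted into the high Emerald-positive fraction (Em+, 2 libraries) and the Emerald-negative fraction (Em-, 2 libraries), and received no other treatment. All 4 libraries come from this 1 line. Whether replicates came from separate cultures or sorting days is not stated, so every p-value here reflects library-to-library spread, possibly technical.

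Cells detect viral RNA through cytosolic helicases such as RIG-I (encoded by Ddx58), which signal through the mitochondrial adaptor MAVS to the transcription factor IRF3, and through the endosomal receptor TLR3. These routes switch on interferon genes, and secreted interferon then induces effector genes, among them those of the IFITM membrane proteins, which hinder viral entry. ADAR edits adenosine to inosine in double-stranded RNA and so keeps the cell's own RNA from being sensed. Mouse ES cells are known for a weak interferon response and for constitutive IFITM expression, and Ifitm3 (fragilis) and Ifitm1 are known as markers of early germ cells.

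Titles and cell type labels set the groups, although each of the 4 description labels names the other fraction. A list of 10 genes of 2-cell-like cells, including 6 Zscan4 genes, summed to 89.8 and 82.8 FPKM (reads scaled to transcript length and library total) in the Em+ libraries, against 0.556 and 0.909 FPKM in the Em- libraries, which goes with the titles. RefSeq counts per library ranged from 16468218 to 18953217. Em+ replicate 2 stood apart: 43.4% of its reads fell on RefSeq transcripts, against 49.0 to 51.1% in the others, and Rn45s, a ribosomal RNA precursor model, took 7.95% of its counts, against 3.93 to 4.33%. Chi-square divided by degrees of freedom was 25.1 between the Em+ replicates and 3.43 between the Em- replicates. The values of the tested members are therefore given with and without Em+ replicate 2. The 6 pluripotency markers summed to 683 to 891 FPKM in Em+ and 940 to 950 FPKM in Em- cells, but did not move together. Nanog was higher in both Em+ libraries, at 132 and 99.7 FPKM against 90.0 and 94.7 FPKM in the Em- libraries. Klf4 was higher too, at 29.0 and 28.8 FPKM in Em+ against 26.6 and 27.1 FPKM in Em- libraries. By FPKM, Pou5f1, Sox2, Esrrb and Zfp42 were lower in both Em+ libraries. On the scaled counts used further below, Pou5f1, Sox2 and Esrrb stayed lower in both. Zfp42 then overlapped between the fractions, at a log2 fold change of 0.02. Of 8 leukocyte markers Ptprc, Csf1r and Emr1 had no row, and the other 5 summed to 0.363 to 0.444 FPKM in Em+ and 0.222 to 0.225 FPKM in Em- cells. Of 6 fibroblast markers, 5 had a row and summed to 5.22 to 6.34 FPKM in Em+ and 3.40 to 3.66 FPKM in Em- cells, nearly all of it Thy1. The part of such cells in the results was not tested.

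The Ifitm genes lie together on chromosome 7 (mm10), and the promoters of those described here, with that of Ddx58, are shown because these 4 genes stood lower in every Em+ library than in either Em- library. The sequences are those of RefSeq on GRCm38.p6, each with 250 bases before and 50 after the annotated start of transcription, written 5′ to 3′ on the gene's strand. Capitals mark matches, on either strand, to GAAA and GAAA separated by any 2 bases, the core of an interferon-stimulated response element (ISRE-type), and to TTCNNNGAA, a STAT-binding (GAS-type) motif.
Ifitm1, chr7:140967826-140968125, plus strand: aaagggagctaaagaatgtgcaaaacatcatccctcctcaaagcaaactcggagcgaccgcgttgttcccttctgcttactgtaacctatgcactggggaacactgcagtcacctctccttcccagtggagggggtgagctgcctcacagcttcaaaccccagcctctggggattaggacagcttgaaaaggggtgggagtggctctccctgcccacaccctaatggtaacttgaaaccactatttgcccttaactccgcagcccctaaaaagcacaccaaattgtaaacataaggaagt
Ifitm2, chr7:140955912-140956211, minus strand: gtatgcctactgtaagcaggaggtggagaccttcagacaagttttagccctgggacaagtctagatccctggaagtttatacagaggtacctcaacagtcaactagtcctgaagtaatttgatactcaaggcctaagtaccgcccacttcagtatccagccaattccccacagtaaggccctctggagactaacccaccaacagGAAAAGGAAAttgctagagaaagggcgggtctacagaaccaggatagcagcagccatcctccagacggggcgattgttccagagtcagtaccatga
Ifitm3, chr7:141010695-141010994, minus strand: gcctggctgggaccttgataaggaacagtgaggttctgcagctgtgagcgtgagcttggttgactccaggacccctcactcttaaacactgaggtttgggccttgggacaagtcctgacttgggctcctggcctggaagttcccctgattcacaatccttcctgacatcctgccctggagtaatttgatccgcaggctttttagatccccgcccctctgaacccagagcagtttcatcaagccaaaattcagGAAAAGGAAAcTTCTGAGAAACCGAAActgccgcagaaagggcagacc
Ddx58, chr4:40239776-40240075, minus strand: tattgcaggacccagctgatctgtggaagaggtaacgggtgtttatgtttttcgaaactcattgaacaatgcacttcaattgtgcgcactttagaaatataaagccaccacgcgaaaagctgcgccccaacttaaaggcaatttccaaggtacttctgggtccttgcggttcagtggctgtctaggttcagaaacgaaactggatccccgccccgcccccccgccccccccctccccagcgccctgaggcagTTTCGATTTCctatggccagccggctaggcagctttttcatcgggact
An ISRE-type match was present in 3 of the 10 promoter windows that the table holds for the 8 genes, those of Ifitm2, Ifitm3 and Ddx58, and in 3.44% of 32851 windows of the same length over all genes. The Ifitm2 window holds GAAAAGGAAA from position −46, counted from the start of transcription. The Ifitm3 window holds the same GAAAAGGAAA from position 3 and GAAACCGAAA from position 20, which overlaps the GAS-type match TTCTGAGAA from position 14. The Ddx58 match, TTTCGATTTC from position 3, is on the opposite strand. GAS-type matches lay in 2 of the 10 windows, those of Ifitm3 and of 1 Adar start, and in 8.3% of all windows. The Ifitm1 window holds neither motif. These matches describe letters in the window and not binding.

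The Ifitm genes were the most abundant of the group and Tlr3 was close to the detection limit. Per length, Ifitm2 averaged 168 FPKM in Em+ and 232 FPKM in Em- cells, Ifitm1 56.4 FPKM in Em+ and 80.6 FPKM in Em- cells, and Ifitm3 33.9 FPKM in Em+ and 46.8 FPKM in Em- cells. The sensing genes followed at a far lower level, with Irf3 at 6.63 FPKM in Em+ and 6.88 FPKM in Em- cells, Mavs at 5.64 and 6.18, Adar at 4.20 and 4.38, Ddx58 at 1.17 and 1.88 and Tlr3 at 0.127 and 0.0625 FPKM in Em+ and Em- cells. FPKM ran lower on average in the Em+ libraries: over all genes averaging at least 1 FPKM the median log2 fold change on log2(FPKM + 1) was −0.14. FPKM is scaled by the library total, and the share of that total on RefSeq transcripts differed. It was 49.01 and 43.45% in Em+ replicates 1 and 2, against 51.15 and 50.73% in Em- replicates 1 and 2. How much of the shift came from Em+ replicate 2 was not tested. The fractions are therefore compared on scaled counts below. In each of the 4 libraries these 8 genes took the same order. Across libraries no neighbours in the order overlapped, and some came close: the lowest Irf3 value was 6.46 FPKM (Em+ replicate 2) and the highest Mavs value 6.31 FPKM (Em- replicate 1), while the lowest Ifitm1 value was 48.4 FPKM (Em+ replicate 2) and the highest Ifitm3 value 47.0 FPKM (Em- replicate 1). The order of the middle genes depended on the transcript models. Summed over Ensembl transcripts Irf3 reached 24.1 to 25.7 FPKM in Em+ and 25.4 to 26.9 FPKM in Em- libraries, while Adar, at 6.39 and 7.81 FPKM in Em+ against 6.99 and 7.12 FPKM in Em- libraries, overlapped Mavs, at 6.35 and 6.22 FPKM in Em+ against 7.28 and 6.92 FPKM in Em- libraries.

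Differences between the fractions were tested on counts scaled by TMM, a method that equalises libraries on the bulk of their genes, and are given as CPM (counts scaled to a common library size). The 12050 genes with a mean of at least 1 FPKM were tested, which left in 7 of the 8 genes and left out Tlr3. With edgeR's quasi-likelihood test and a Benjamini-Hochberg adjusted p under 0.05, 0 of the 7 were called, and 4.64% of all tested genes were called (3.82% higher and 0.822% lower in Em+ cells). At an unadjusted p under 0.05, 4 of the 7 were lower in Em+ cells and none was higher, where 10.7% of all tested genes were lower, 14.5% were higher and 25.3% differed in either direction. DESeq2 called 1 of them (Ifitm1, lower) and 5.75% of all genes, and limma on log2(FPKM + 1) called 0 of them and 2.43% of all genes. With the replicate number as a block edgeR called 4 of them lower and 12.9% of all genes (3.83% lower), although the labels do not say that the numbers pair the libraries. Ifitm1, Ifitm2, Ifitm3 and Ddx58 had both Em+ libraries below both Em- libraries, a pattern shown by 29.7% of all tested genes. Adar alone had both above, as had 29.7% of tested genes, so that 59.4% of tested genes had groups that did not overlap.

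**Figure D1:**
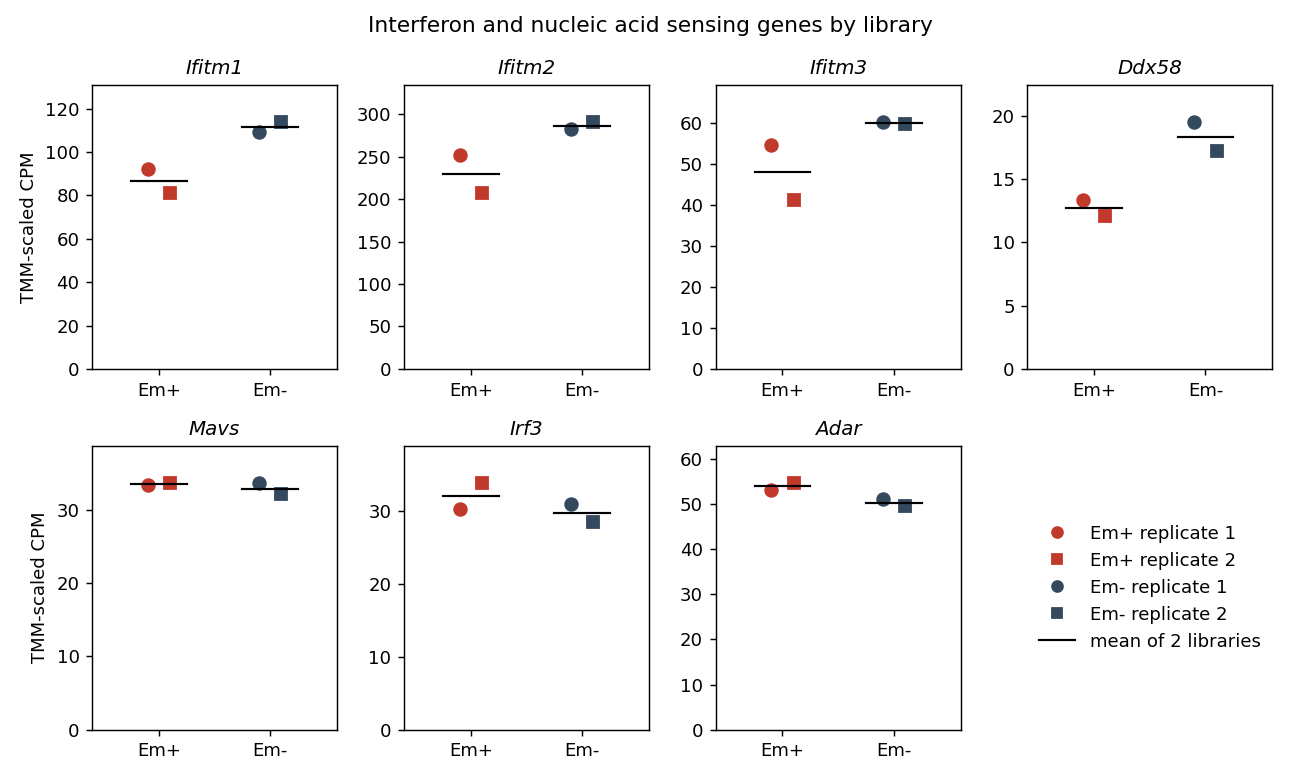
TMM-scaled CPM of 7 genes in each library, Em+ (red) left of Em- (dark), with replicate 1 as circles, replicate 2 as squares and the mean of 2 libraries as a line; every axis starts at 0. Ifitm1, Ifitm2, Ifitm3 and Ddx58 have both Em+ points below both Em- points, while Mavs and Irf3 overlap.

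Ifitm1, on chromosome 7 from 140967429 to 140969827, encodes an interferon-induced membrane protein found mostly at the cell surface. It was at 92.3 and 81.2 CPM in Em+ replicates 1 and 2, against 109 and 114 CPM in Em- replicates 1 and 2. Both Em+ libraries were lower, at 0.778 times the Em- level. The log2 fold change was −0.36 (SE 0.08, 95% interval −0.55 to −0.17, adjusted p = 0.0511, edgeR's quasi-likelihood test), just outside the threshold. Of all tested genes 3.56% had a lower value. Without Em+ replicate 2 the Ifitm1 value was −0.28, and without Em+ replicate 1 it was −0.46. A fit with 1 Em+ library takes its spread from the Em- pair, so its p-values do not measure spread between Em+ libraries. Leaving out an Em+ library also raised the share of all tested genes called, to 16.3% without replicate 2 (9.43% higher and 6.90% lower) and 41.4% without replicate 1 (21.9% higher and 19.5% lower). Leaving out Em- replicate 1 or 2 gave 4.07% or 4.87%, fits in which Ifitm1 was not called.

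Ifitm2 (140954839 to 140955961), the most abundant of the 3, had 253 and 208 CPM in the Em+ libraries, against 283 and 291 CPM in the Em- libraries. The Em+ libraries differed from each other more than Em+ replicate 1 differed from Em- replicate 1. The log2 fold change was −0.32 (SE 0.10, 95% interval −0.54 to −0.09, edgeR adjusted p = 0.106). It was −0.18 without Em+ replicate 2 (edgeR adjusted p = 0.0104) and −0.47 without Em+ replicate 1 (edgeR adjusted p = 2.3e-05).

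Ifitm3 (141009590 to 141010744), whose protein blocks virus fusion in late endosomes, had 54.5 and 41.3 CPM in the Em+ libraries, against 60.1 and 59.6 CPM in the Em- libraries. Em+ replicate 2 was the low one. The log2 fold change was −0.32 (SE 0.13, 95% interval −0.61 to −0.03, edgeR adjusted p = 0.172). It was −0.14 without Em+ replicate 2 (edgeR adjusted p = 0.117) and −0.54 without Em+ replicate 1 (edgeR adjusted p = 9.9e-05), so the size of the Ifitm3 value rested largely on that library.

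The 3 fold changes were close to each other, from 0.778 to 0.802 times the Em- level, and sequence shared between the genes was small. Of the 606 stretches of 50 bases in Ifitm2 transcripts (GENCODE M21) 3.3% also occur in Ifitm3 and none in Ifitm1, and 1.42% of those of Ifitm1 occur in Ifitm3. Gm45717, a GENCODE gene on the same strand, overlaps nearly all of Ifitm2, and reads of the pair cannot be told apart here. Of the other Ifitm genes only Ifitm5, a bone gene that lies next to Ifitm2, passed the expression filter. It had 2.62 and 2.97 CPM in the Em+ libraries, against 3.41 and 3.58 CPM in the Em- libraries, at a log2 ratio of −0.33 (SE 0.19; edgeR adjusted p = 0.309). Ifitm6 had 11 and 8 counts in the Em+ libraries, against 11 and 5 in the Em- libraries. In bulk RNA of sorted cells, fewer cells expressing a gene and less of its RNA per cell cannot be told apart.

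The neighbours of the cluster were examined by position. Within 100 kb on either side of the cluster lay 16 RefSeq genes, 12 of which were tested, the 4 Ifitm genes and 8 others. Of the 8 others 5 had a value below 0 and 0 were called. Sigirr, an inhibitor of interleukin-1 and Toll-like receptor signalling, stood at −0.36 (log2 fold change, SE 0.08, edgeR adjusted p = 0.056), as large as that of Ifitm1. Athl1, next to Ifitm5 on the other side, stood at 0.04 (SE 0.09, edgeR adjusted p = 0.826). These neighbours were looked up after the values of the Ifitm genes were seen.

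**Figure D2:**
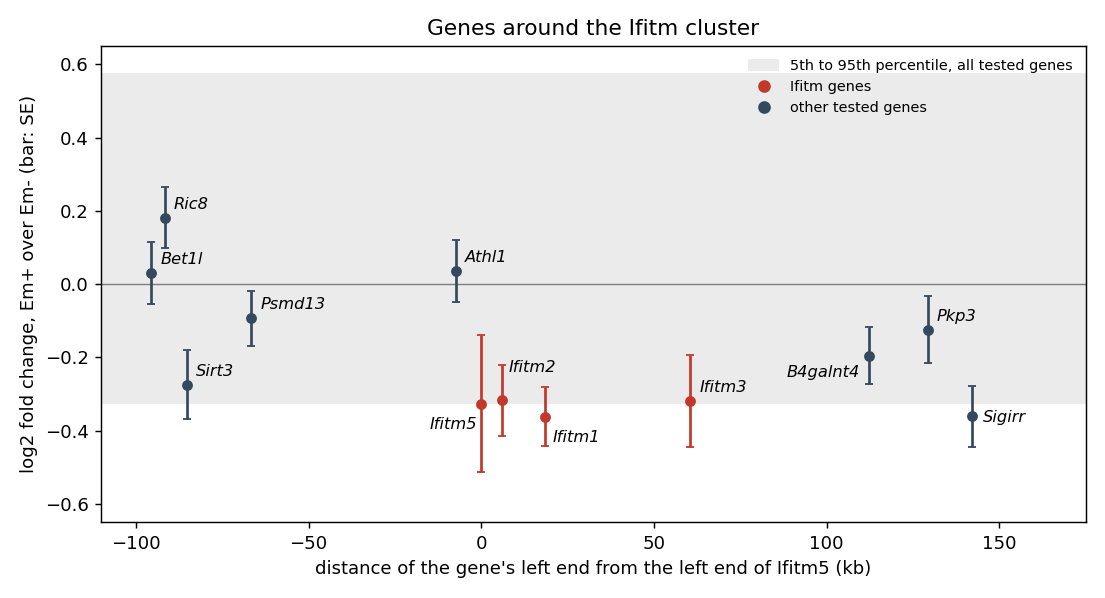
The log2 fold change (Em+ over Em-, bars show SE) of each tested gene against its distance in kb from the left end of Ifitm5, with Ifitm genes in red and other genes dark; the grey band spans the 5th to 95th percentile of all tested genes. The 4 Ifitm genes lie between −0.36 and −0.32, and Sigirr at −0.36.

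The genes whose 4 values lay nearest to the pattern of Ifitm1, by Euclidean distance of centred log2(CPM + 1) over the 4 libraries and outside the lists used here, were Ltbr (distance 0.0171), Bmf (0.0229) and Rassf1 (0.0248). Bmf, for example, had 78.3 and 68.0 CPM in the Em+ libraries, against 92.9 and 95.1 CPM in the Em- libraries.

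Ddx58 (chromosome 4, 40203777 to 40239825) encodes RIG-I, the helicase that binds 5′-triphosphate RNA. It had 13.3 and 12.1 CPM in the Em+ libraries, against 19.5 and 17.2 CPM in the Em- libraries, which rest on 239 and 191 counts in Em+ and 355 and 326 counts in Em- cells. The groups did not overlap, and means with SD over 2 libraries were 12.7 ± 0.888 CPM (Em+) against 18.4 ± 1.65 CPM (Em-). The log2 fold change was −0.53 (SE 0.12, 95% interval −0.81 to −0.25, edgeR adjusted p = 0.0532), a level 0.693 times that of Em- cells and the largest difference among the 7 tested genes. Of all tested genes 1.11% had a lower value. The Ddx58 value was −0.46 without Em+ replicate 2 (edgeR adjusted p = 0.0312) and −0.60 without Em+ replicate 1 (edgeR adjusted p = 0.0051). It was −0.62 without Em- replicate 2 (edgeR adjusted p = 0.0288) and −0.44 without Em- replicate 1 (edgeR adjusted p = 0.279).

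Mavs, Irf3 and Adar, downstream of or beside the sensors, showed values near 0. Mavs (chromosome 2, 131234063 to 131248024) had 33.3 and 33.7 CPM in the Em+ libraries, against 33.6 and 32.1 CPM in the Em- libraries, and the groups overlapped. Its log2 fold change was 0.03 (SE 0.08, edgeR adjusted p = 0.843), with a 95% interval from −0.15 to 0.21. Irf3 (chromosome 7, 44997648 to 45002848), the transcription factor that is phosphorylated downstream of MAVS and of TLR3, had 30.3 and 33.9 CPM in the Em+ libraries, against 30.9 and 28.5 CPM in the Em- libraries, again with overlap. The Irf3 value was 0.11 (SE 0.09, 95% interval −0.10 to 0.32, edgeR adjusted p = 0.471). Adar (chromosome 3, 89715022 to 89753455) had 53.2 and 54.8 CPM in the Em+ libraries, against 51.2 and 49.5 CPM in the Em- libraries, which did not overlap. The Adar value was 0.10 (SE 0.07, 95% interval −0.07 to 0.27, edgeR adjusted p = 0.43). These intervals leave room for differences of either sign, so equality of the fractions was not shown. With Em+ replicate 2 left out, Mavs stood at 0.02, Irf3 at 0.03 and Adar at 0.08, and none was called. On deposited FPKM, where the median over all tested genes was shifted to −0.14, the 3 values turned to −0.12, −0.05 and −0.05 for Mavs, Irf3 and Adar, all above that shift.

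**Figure D3:**
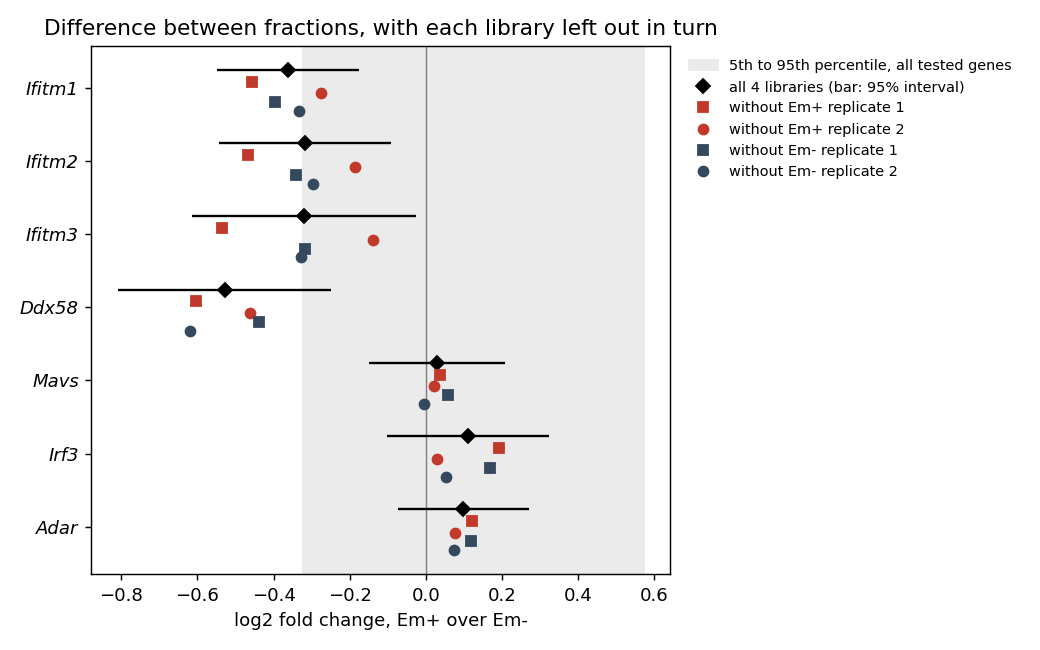
Log2 fold change (Em+ over Em-) of 7 genes from all 4 libraries (diamonds, bars show the 95% interval) and with each library left out in turn (red for an Em+ library, dark for an Em- library); the grey band spans the 5th to 95th percentile of all tested genes, −0.32 to 0.57. Ifitm3 moves between −0.54 and −0.14 with the choice of Em+ library, Ddx58 stays between −0.62 and −0.44, and Mavs stays within 0.06 of 0.

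Values for single transcripts of these genes were not compared between the fractions, because the split of reads among transcripts followed the transcript models. Of the RefSeq Adar counts, 97.9% fell on NM_019655, which had 930 and 846 counts in the Em+ libraries, against 915 and 923 in the Em- libraries, while the known-gene table gave the same transcript 8 and 5 counts in Em+ and 7 and 4 in Em- libraries and placed 94.6% of Adar counts on AF291877. Summed over transcripts, Adar had 186 and 205 counts in the Em+ libraries, against 185 and 192 in the Em- libraries of the Ensembl table. Of the Irf3 counts 99.6% fell on NR_045611, a RefSeq non-coding model with the same ends as the coding one. The summed fold changes varied less: over the known-gene, Ensembl and ENCODE tables Ddx58 stood at −0.52, −0.43 and −0.44, and Ifitm1 at −0.37, −0.36 and −0.36 (edgeR adjusted p from 0.0591 to 0.0906 for the 6 values). Irf3 overlaps Bcl2l12 and Adar overlaps Chrnb2 on the opposite strand, and since the use of strand in counting is not given in the sources used here, reads in the overlaps cannot be assigned.

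Tlr3 (chromosome 8, 45395665 to 45410539), the receptor for double-stranded RNA in endosomes, was below the filter and had 22 and 19 counts in the Em+ libraries against 8 and 12 in the Em- libraries. Both Em+ libraries held more reads. In the fit with no expression filter, over 19797 genes, its log2 fold change was 1.11 (SE 0.38, edgeR adjusted p = 0.12), where 5.95% of all genes were called. An antisense gene, Gm45542, overlaps part of it.

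The rest of the pathway was described through lists of 114 further genes, 62 of which passed the filter. Of these 62, edgeR called 1 higher (Ifnk) and 0 lower in Em+ cells. At an unadjusted p under 0.05, 9 of the 62 were higher and 5 lower, where 14.5% of all tested genes were higher and 10.7% lower. DESeq2 called Ifnk higher and Socs3 lower, and limma on log2(FPKM + 1) called Ifnk higher and Ifnar2 lower. The median log2 fold change of the 62 was 0.00, as over all tested genes. Without Em+ replicate 2 edgeR called 6 of the 62 higher and 2 lower, where 9.43% of all tested genes were called higher and 6.90% lower. Without Em+ replicate 1 it called 14 higher and 13 lower, where the shares over all tested genes were 21.9% and 19.5%. The shares of pathway genes called higher were near those of all genes in both fits.

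Among interferon ligands 2 of 9 symbols had a row. Ifnk, a type I interferon best known from keratinocytes, had 3.01 and 4.42 CPM in the Em+ libraries, against 0.825 and 0.843 CPM in the Em- libraries, which rest on 54 and 70 counts in Em+ and 15 and 16 counts in Em- cells. It rose, at a log2 ratio of 2.13 (SE 0.30, edgeR adjusted p = 0.00719). Ifnk passed the filter through its Em+ libraries alone, with 1.8 and 2.25 FPKM there against 0.509 and 0.522 FPKM in the Em- libraries. With no filter it was called at 2.08 (edgeR adjusted p = 0.00253), where 5.95% of all genes were called. Over the 16 alternatives its value ranged from 0.99, with limma on log2(FPKM + 1), to 2.40, with Em+ replicate 1 left out. It was 1.84 with Em+ replicate 2 left out. Ifnk (chromosome 4, 35152056 to 35154005) lies in an intron of Mob3b, a kinase activator gene on the opposite strand, which also rose: it had 19.3 and 23.4 CPM in the Em+ libraries, against 12.2 and 11.5 CPM in the Em- libraries (log2 fold change 0.85, SE 0.13, edgeR adjusted p = 0.0107). Without strand, reads of Ifnk and of the unspliced Mob3b transcript cannot be told apart. Mob3b was looked up after the Ifnk value was seen. Ifna4 had 1 count in Em+ replicate 1 and 0 in the other libraries.

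Of 17 genes of interferon receptors and signalling 14 were tested and 0 were called by edgeR over all 4 libraries. At an unadjusted p under 0.05, 1 was higher and 2 lower, where 14.5% of all tested genes were higher and 10.7% lower. The median log2 fold change of the 14 was −0.01. Leaving out Em+ replicate 2 gave a median of −0.01, and leaving out Em+ replicate 1 gave 0.03. Ifnar2, a subunit of the type I interferon receptor, had 12.2 and 12.4 CPM in the Em+ libraries, against 18.4 and 16.1 CPM in the Em- libraries (log2 fold change −0.49, SE 0.12, edgeR adjusted p = 0.0609). Ifnar2 stood at −0.48 without Em+ replicate 1 and −0.50 without Em+ replicate 2. Over all 4 libraries, edgeR called Ifnar2 with library totals alone, no filter, a filter of 10 counts in 2 libraries and a replicate block. Both limma fits on FPKM called Ifnar2, and DESeq2 did not. Its partner Ifnar1 had 64.3 and 62.5 CPM in the Em+ libraries, against 60.5 and 61.0 CPM in the Em- libraries (0.06, SE 0.07, edgeR adjusted p = 0.627). Ifnar1 and Ifnar2 were named after their values were seen. Socs3, a feedback inhibitor of JAK kinases and the most abundant of the list, had 380 and 336 CPM in the Em+ libraries, against 463 and 449 CPM in the Em- libraries (−0.35, SE 0.08, edgeR adjusted p = 0.0541). Socs3 stood at −0.44 without Em+ replicate 1 and −0.27 without Em+ replicate 2. Over all 4 libraries, DESeq2 called Socs3, and edgeR did with no filter, the same filter on counts and a replicate block.

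Most interferon-stimulated genes were below the filter. Of 38 listed, 36 had a row, 13 passed the filter and 0 were called over all 4 libraries by edgeR, DESeq2 or limma on log2(FPKM + 1). At an unadjusted p under 0.05, 0 were higher and 2 lower, where 14.5% of all tested genes were higher and 10.7% lower. The median was −0.11. This lean of the median depended on Em+ replicate 2: it was 0.01 without that library and −0.18 without Em+ replicate 1. Isg15, a ubiquitin-like modifier that is among the strongest interferon targets, had 1 and 1 counts in the Em+ libraries, against 3 and 0 in the Em- libraries. Ifit1 had 5 and 1 counts in Em+ and 0 and 2 in Em- libraries, and Ifit3 had 2 and 2 in Em+ and 0 and 0 in Em- libraries. Bst2 (tetherin, which holds budding virus at the membrane), the most abundant, had 73.7 and 65.9 CPM in the Em+ libraries, against 74.0 and 77.2 CPM in the Em- libraries (−0.11, SE 0.08, edgeR adjusted p = 0.419). Mx1, an antiviral GTPase gene below the filter, had 21 and 24 counts in the Em+ libraries, against 4 and 6 in the Em- libraries, with a log2 fold change of 2.22 in the fit with no filter (edgeR adjusted p = 0.0186). Isg15, Ifit1, Ifit3 and Mx1 were named after their values were seen.

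None of the 13 tested RNA sensing and 8 tested DNA sensing genes was called over all 4 libraries by edgeR without a block, DESeq2 or limma on log2(FPKM + 1). At an unadjusted p under 0.05, 2 and 2 were higher and 0 and 0 lower, where 14.5% of all tested genes were higher and 10.7% lower. With the replicate block edgeR called Traf6, a ubiquitin ligase (0.32, edgeR adjusted p = 0.0492), and without Em+ replicate 2 it called Zc3hav1, which encodes an antiviral RNA-binding protein (0.28, edgeR adjusted p = 0.0372). The median log2 fold change without Em+ replicate 1 was 0.0044 for the RNA sensing and 0.0487 for the DNA sensing genes. Tomm70a, the mitochondrial import receptor that interacts with MAVS, had 481 and 449 CPM in the Em+ libraries, against 488 and 482 CPM in the Em- libraries (−0.06, SE 0.07, edgeR adjusted p = 0.617). It stood at −0.11 without Em+ replicate 1. Ddx41, a helicase proposed as a DNA sensor, had 62.3 and 65 CPM in the Em+ libraries, against 69.1 and 67.3 CPM in the Em- libraries (−0.10, SE 0.07, edgeR adjusted p = 0.431). Of 12 tested genes of double-stranded RNA binding and editing, edgeR without a block called 0 over all 4 libraries. DESeq2 and limma on log2(FPKM + 1) also called 0. The unadjusted p was under 0.05 for 3 higher and 1 lower genes, beside 14.5% higher and 10.7% lower of all tested genes. Their median was 0.13 over all 4 libraries, 0.04 without Em+ replicate 2 and 0.19 without Em+ replicate 1. Dhx9, an RNA and DNA helicase gene, had 251 and 365 CPM in the Em+ libraries, against 220 and 226 CPM in the Em- libraries (0.46, edgeR adjusted p = 0.127). Em+ replicate 2 was the high one, and Dhx9 stood at 0.17 without it, 0.71 without Em+ replicate 1 and 0.48 without Em- replicate 2. Stau1, which encodes a double-stranded RNA-binding protein, stood at 0.25 without Em+ replicate 2 and 0.42 without Em+ replicate 1. Prkra of the same list went the other way. It had 34.4 and 29.9 CPM in the Em+ libraries, against 38.3 and 38.7 CPM in the Em- libraries (−0.26, edgeR adjusted p = 0.14). Prkra stood at −0.37 without Em+ replicate 1. With the replicate block Dhx9 was called at 0.44 and Stau1 at 0.34. Traf6, Zc3hav1, Dhx9, Stau1 and Prkra were named after their values were seen. Adad1, a testis relative of the editing enzymes below the filter, had 75 and 82 counts in the Em+ libraries, against 20 and 28 in the Em- libraries, a log2 fold change of 1.79 in the fit with no filter (edgeR adjusted p = 0.00195); it too was named after its values were seen.

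**Figure D4:**
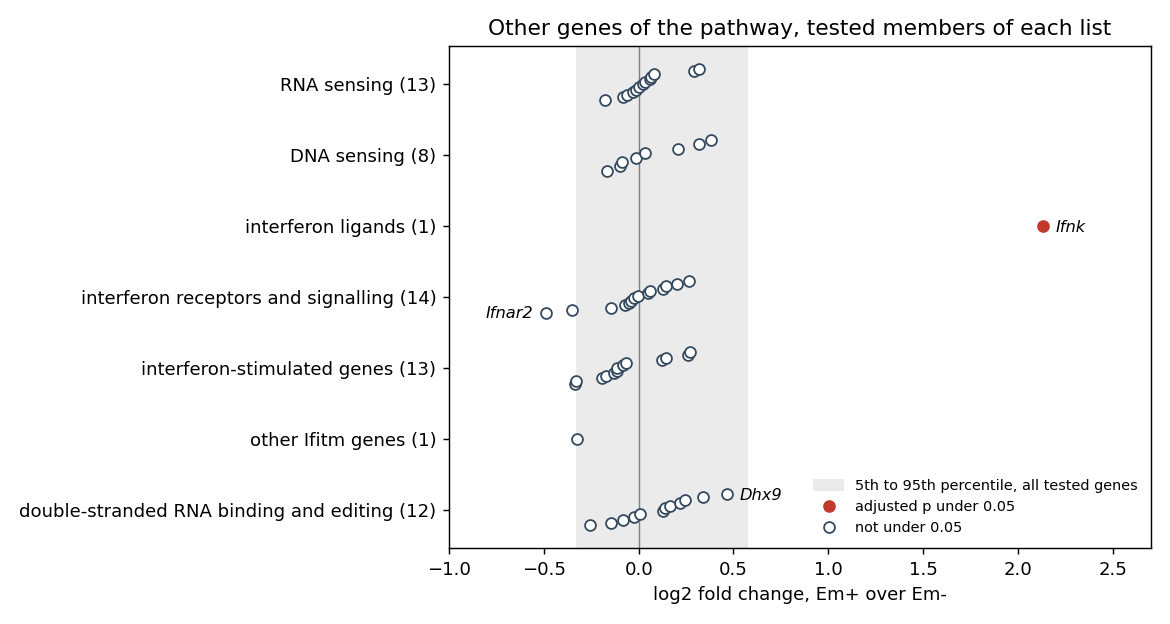
Log2 fold change (Em+ over Em-) of each tested gene in 7 pathway lists, with the number tested in brackets; filled red points have an edgeR adjusted p under 0.05, and the grey band spans the 5th to 95th percentile of all tested genes. Ifnk, at 2.13, is the only filled point, and Ifnar2, at −0.49, is the lowest.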

How the data were processed

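Whole-transcriptome libraries of 2 Em+ and 2 Em- fractions were analysed. Per the labels' protocols, ribosomal RNA was depleted and stranded libraries were sequenced on a HiSeq instrument. The build mm10 and the aligner Bowtie2 are listed, per the submitters' processing notes. The sources used here name no counting program, annotation release, or handling of multiple mapping and strand. The authors deposited 4 tables (RefSeq, known-gene, Ensembl, ENCODE) with counts and FPKM per transcript, per the file headers. Starts in the files count from 0 and are printed from 1.

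For Em- replicate 1 the RefSeq and Ensembl tables list every count as 0. The counts used for that library were therefore computed as FPKM plus 0.0005, times transcript length and the library total recovered from the known-gene table. This returned the deposited counts of the other libraries for 99.95 to 99.97% of 24538 RefSeq transcripts.

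Values were summed per symbol, and genes averaging 1 FPKM or more were tested with edgeR 4.0.16 (quasi-likelihood, TMM, two-sided, Benjamini-Hochberg over all genes tested, threshold 0.05; R 4.3.3). The common biological coefficient of variation was 0.0731. The test was checked on simulated counts for Em+ over Em- (12050 genes), where it called 60% of genes given a log2 fold change of −0.5 and 44% of those given −0.35. The simulation used the same coefficient of variation for every gene and library, whereas the Em+ replicates here differed more than the Em- replicates. These rates therefore do not give the power of the test for the members. The alternatives were DESeq2 1.42.0, limma 3.58.1, other scaling and filters, a replicate block, each library left out, and the other tables. The rule for named genes took all members, every pathway-list gene called over all 4 libraries, the most abundant tested gene of each list and the 3 genes most like Ifitm1. Genes named outside this rule were picked with their values known. A gene that this rule names is not reported here. The members and lists were chosen with earlier results of these data known.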

Additional observations from a re-analysis of the deposited data

How the results depend on the processing

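Over 16 alternatives each, Ifitm1, Ifitm2, Ifitm3 and Ddx58 kept a value below 0. Ifitm1 was called in 8 by edgeR, DESeq2 or limma, Ddx58 in 7, Ifitm2 in 3 and Ifitm3 in 2. Among these are fits without an Em+ library and the fit with a replicate block. Each of those called a larger share of all tested genes than the main fit (12.9% with the block, against 4.64%). All calls of Ifitm2 and Ifitm3 came from those fits. Ifitm1 passed the threshold at −0.3628 with DESeq2 (adjusted p = 0.0301). With edgeR it passed at −0.3627 with RLE factors (edgeR adjusted p = 0.04996) and −0.3776 with library totals alone. It also passed at −0.4199 with no filter and −0.4025 with a filter of 10 counts in 2 libraries. Ddx58 passed with edgeR at −0.5444 with totals alone, −0.5871 with no filter and −0.5695 with the filter on counts. Mavs turned to −0.0306 with no filter, −0.0127 with the filter on counts, −0.0012 in the ENCODE table, and −0.1152 and −0.133 with limma on log2(FPKM + 1) and log2(FPKM + 0.1). Under these limma fits Irf3 turned to −0.0456 and −0.0515 and Adar to −0.0521 and −0.0633, where the medians over all genes were −0.1352 and −0.1596. The cause was not tested.

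Called counts moved as follows from 460 genes higher and 99 lower. The fit with no filter tested 19797 genes and that with the filter on counts 15920, against 12050 in the main fit. Higher genes numbered 887 with no filter, 939 with the filter on counts, and 226 and 215 in the limma fits. Lower genes numbered 151 with DESeq2, 185 with totals alone, 291 with no filter, 306 with the filter on counts and 54 with limma on log2(FPKM + 0.1). The members called numbered 1 with DESeq2, 1 with RLE factors, and 2 each with totals alone, no filter and the filter on counts. Of all genes, DESeq2 called 5.75% and the fit with no filter 5.95%. Over the 12050 genes, edgeR called 593 higher and 185 lower with totals alone, and 466 higher and 107 lower with RLE factors. Over the 15920 genes of the filter on counts it called 939 higher and 306 lower. Pathway genes called higher numbered 3 with no filter, 3 with the filter on counts, and 2 each in the Ensembl and ENCODE tables. Those called lower numbered 1 with DESeq2, 1 with totals alone, 1 in each limma fit, 2 with no filter and 2 with the filter on counts.

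With each library left out in turn, the log2 fold change ran from −0.4573 to −0.2755 for Ifitm1, −0.4668 to −0.1849 for Ifitm2, −0.5366 to −0.1374 for Ifitm3, −0.6187 to −0.4385 for Ddx58, −0.0037 to 0.0583 for Mavs, 0.0305 to 0.1912 for Irf3 and 0.0751 to 0.1207 for Adar. Genes called higher ran from 457 to 2642, genes called lower from 33 to 2350, members called from 0 to 4, pathway genes higher from 1 to 14 and pathway genes lower from 0 to 13. Both highest totals came without Em+ replicate 1. A lone library is assumed to vary like the other group.

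The labels do not say whether the replicate numbers pair the libraries. The correlation of same-numbered deviations was 0.0235, which cannot decide this with only 2 pairs and an Em+ replicate 2 that stood apart. A fit with the replicate number as a block called 1090 genes higher and 462 lower, and 4 members at −0.3643 (Ifitm1), −0.3242 (Ifitm2), −0.3321 (Ifitm3) and −0.5307 (Ddx58), with 4 pathway genes higher and 2 lower. With 2 libraries a fraction, simulated log2 fold changes of −0.35 were called in 44% of 25 genes, under the same spread for all genes and libraries.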
